A study of Mus musculus with 20 samples.

Results

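The genes that write, copy and erase 5-methylcytosine were followed in mouse intestine after expression of BRAFV600E and after MEK inhibition. They are Dnmt1, Uhrf1, Dnmt3a, Dnmt3b, Tet1, Tet2, Tet3 and Tdg, 8 of the 25027 genes named on the array. They were taken by name, through every probe that carried one of these names in the scanner files, which gave 21 of 56605 probes.

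DNA methylation in mammals is placed on cytosines next to guanines (CpG sites). Dnmt3a and Dnmt3b set new marks, and Dnmt1 copies them onto the daughter strand after replication, guided there by Uhrf1, which binds half-methylated DNA. Tet1, Tet2 and Tet3 oxidise the mark with oxygen, iron and 2-oxoglutarate, and Tdg cuts out the most oxidised forms so that base excision repair can restore an unmodified cytosine. In the gut epithelium the copying machinery runs with the division of crypt cells, and colorectal cancers with BRAF mutation often carry dense methylation at many CpG-rich promoters.

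Transcripts were measured in intestinal tissue of 20 C57BL6/j mice on 1-colour arrays, with 1 mouse per array. The 6 Cre control mice carried VillinCreER/0 and the 6 BRAFV600E mice VillinCreER/0 together with BrafV600E-LSL/+. The Villin promoter drives this tamoxifen-activated Cre in the gut epithelium, while the tissue also holds muscle, immune and stromal cells, in which the allele was not aimed at. Both groups were 8 to 12 weeks old, received 2 mg tamoxifen on 3 consecutive days and were sampled 3 days after the last injection, so that the controls share Cre and tamoxifen. The other experiment had 4 MEKi and 4 Vehicle mice. By the study's account these carried the mutant allele, had tamoxifen on 2 consecutive days (100 μl at 10 mg/ml), and then 3 daily injections of the MEK inhibitor PD184352 or of its carrier (10% DMSO and 10% Cremophor EL in water). The array labels give no genotype for them. The first comparison asks what the mutant kinase changes within days, and the second which transcripts change when its downstream kinase is blocked.

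Between 60.8% and 76.8% of spots were well above background, and 0 were saturated. Slide 1 carried the whole Cre control group with 2 of the 6 BRAFV600E mice (replicates 1 and 2), and the other 4 BRAFV600E mice were on slide 2. Slide 3 carried MEKi in row 1 and Vehicle in row 2, so that row and treatment cannot be told apart. Cre control replicates 2, 3 and 5 had spike-in slopes of 0.773, 0.843 and 0.759, below the limit of 0.9, and the 4 arrays of slide 2 had a slope of 0. Vehicle replicate 2 stood apart in a list of 4 exocrine pancreas genes, with a mean log2 level of 7.25 against −5.41 to −4.11 on the other 7 arrays of that experiment. In the same experiment Y-linked transcripts were high on all 4 MEKi arrays and, of the Vehicle arrays, on replicates 1 and 3 only. In the first comparison they were high on Cre control replicates 1, 2 and 3 and on BRAFV600E replicates 1, 2, 3 and 6. The labelled tissue was borne out by the 6 epithelial markers, whose mean level lay between 5.94 and 7.02 on every array. Braf, whose probe does not separate the alleles, had a log2 difference of 0.42 (SE 0.20, adjusted p 0.172 from limma) between BRAFV600E and Cre control.

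Levels below are log2 processed intensities relative to the 75th percentile of the array, so that 0 marks that percentile, and a level can be compared between arrays but not between genes. Differences come from limma fitted on all genes of a comparison, and the word called is used where the p adjusted by Benjamini-Hochberg fell under 0.05. Where a gene had several probes, the brightest of them on average represented it. In tissue RNA, fewer cells of a type and less RNA per cell cannot be told apart.

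Probes are shown for Dnmt1, which had a single one, and for Dnmt3b and Tet3, whose probes differed in their results. The part of probe position in those results was not tested. Each probe shown has 60 bases and is written 5′ to 3′ as in the scanner files, with positions on mouse build mm9. The single Dnmt1 probe lies at chr9:20711973-20712341 on the minus strand, a span of 369 bases, so that it crosses a splice junction and reads spliced transcript. The Dnmt3b probe that stood for the gene lies at chr2:153512098-153512157, and capitals mark the TAG triplet that ends the open reading frame within it. The Tet3 probes are separated by 32963 bases, the first shown at chr6:83319720-83319779 and the other at chr6:83352743-83352802, both on the minus strand and each open in at least 1 reading frame.
Dnmt1: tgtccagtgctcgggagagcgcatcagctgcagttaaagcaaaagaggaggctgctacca
Dnmt3b: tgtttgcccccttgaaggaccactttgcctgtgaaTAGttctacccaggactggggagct
Tet3, probe standing for the gene: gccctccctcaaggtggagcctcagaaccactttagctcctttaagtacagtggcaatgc
Tet3, other probe: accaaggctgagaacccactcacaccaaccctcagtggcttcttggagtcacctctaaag

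None of the 8 genes was called in either comparison. In BRAFV600E against Cre control, limma called 0 of 8 against 12.4% of the 19034 genes tested, and at an unadjusted p under 0.05 there was 1 of 8, Dnmt3a, against 30.1%. In MEKi against Vehicle it called 0 of 8 against 1.98% of 19224 genes, and at an unadjusted p under 0.05 there were 3 of 8, Dnmt3a, Uhrf1 and Tet3, against 16.4%. All 8 genes passed the filter on dim probes in both comparisons, and the probe that stood for each was well above background on all 20 arrays, while some of their other probes were dim. The groups did not overlap for 0 of 8 genes in the first comparison, against 7.36% of genes, and for 3 of 8 in the second, against 12.2%. Of these, Dnmt3a was higher in MEKi (6.44% of all genes), and Uhrf1 and Tdg were lower (5.74%).

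**Figure D1:**
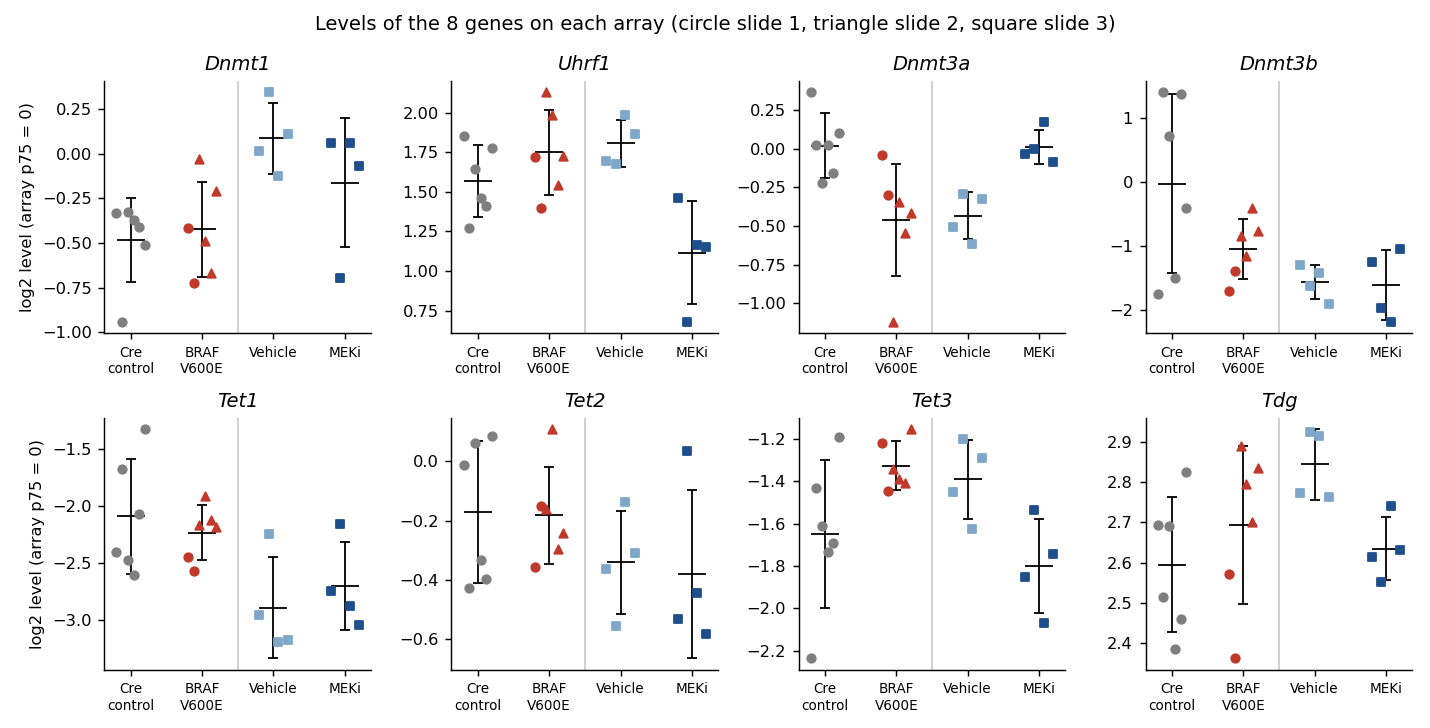
Log2 level of each gene relative to the array's 75th percentile (y axis) in the 4 groups (x axis). Each point is 1 array (1 mouse), its shape gives the slide, and the horizontal and vertical bars are the mean and SD. The MEKi points lie above every Vehicle point for Dnmt3a and below every Vehicle point for Uhrf1 and Tdg, while the 6 Cre control points of Dnmt3b run from −1.76 to 1.39.

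Dnmt1, the maintenance methyltransferase, hardly differed in mean between BRAFV600E and Cre control. Its level was −0.94 at the lowest, −0.39 at the median and −0.33 at the highest in Cre control, and −0.72, −0.45 and −0.03 in BRAFV600E. The groups overlapped, with 2 BRAFV600E arrays above every control array. The difference was 0.06 (95% interval −0.28 to 0.40, limma adjusted p 0.839). In MEKi the 4 arrays read 0.06, −0.69, 0.06 and −0.07, and in Vehicle 0.01, 0.34, −0.13 and 0.11. MEKi replicate 2 was lower than every other array of that experiment, and the other 3 MEKi arrays lay within the Vehicle range. The difference was −0.25 (95% interval −0.71 to 0.21, limma adjusted p 0.613).

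Uhrf1, the factor that brings Dnmt1 to newly copied DNA, gave the largest difference of the 8 under MEK inhibition. Its level was 1.46, 0.68, 1.17 and 1.15 on the 4 MEKi arrays and 1.69, 1.68, 1.98 and 1.87 on the 4 Vehicle arrays. Every MEKi array lay below every Vehicle array. The difference was −0.69 on the log2 scale (SE 0.18, 95% interval −1.10 to −0.28), a 1.61-fold lower mean, with an unadjusted limma p of 0.00471 that became 0.107 after adjustment over all genes. Without Vehicle replicate 2, the array with pancreatic transcripts, it was −0.73 (limma adjusted p 0.123), and with the Y-linked level as a covariate −0.71 (limma adjusted p 0.283). The other Uhrf1 probe, at chr17:56451668-56452321, was dim, between −5.14 and −3.86 on these 8 arrays, and went the other way, by 0.30 (95% interval −0.32 to 0.92). The value above rests on the probe at chr17:56462770-56462829 alone, and the mean of both probes gave −0.20 (limma adjusted p 0.714). Over 21 alternative settings and left-out arrays the adjusted p ran from 0.0503 to 0.714.

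After BRAFV600E expression Uhrf1 was at 1.27, 1.56 and 1.85 (lowest, median, highest) in Cre control and at 1.40, 1.72 and 2.13 in BRAFV600E. The groups overlapped, with 2 BRAFV600E arrays above every control array, both of them on slide 2. The difference was 0.18 (95% interval −0.16 to 0.52, limma adjusted p 0.470). Within slide 1, with 6 control and 2 BRAFV600E arrays, it was −0.011 (limma adjusted p 0.981).

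Because Dnmt1 and Uhrf1 act during DNA replication, both were set beside 18 S phase genes for replication licensing, nucleotide supply and the cell cycle, of which 17 were tested. The mean level of that list was 0.95 to 1.47 on the MEKi arrays and 1.38 to 1.74 on the Vehicle arrays, and 1.21 to 1.57 in BRAFV600E against 1.01 to 1.32 in Cre control. MEKi replicate 2, lowest of the 4 MEKi arrays in this list, was also the lowest of the 20 arrays for Uhrf1. Of the list, 16 of 17 genes were below 0 in MEKi against Vehicle (median −0.21, against 0.04 over all genes), and Mcm3, a subunit of the replicative helicase, was called lower, at −0.73 (SE 0.14, limma adjusted p 0.0414), where 0.884% of all genes were called lower and 1.09% higher. In BRAFV600E 14 of 17 were above 0 (median 0.35, against −0.02 over all genes). Rrm2, a subunit of ribonucleotide reductase, was called higher by 0.60 (SE 0.11, limma adjusted p 0.00493), and the other 16 were not called. That count of 1 of 17 is near the 6.18% of all genes called higher.

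**Figure D2:**
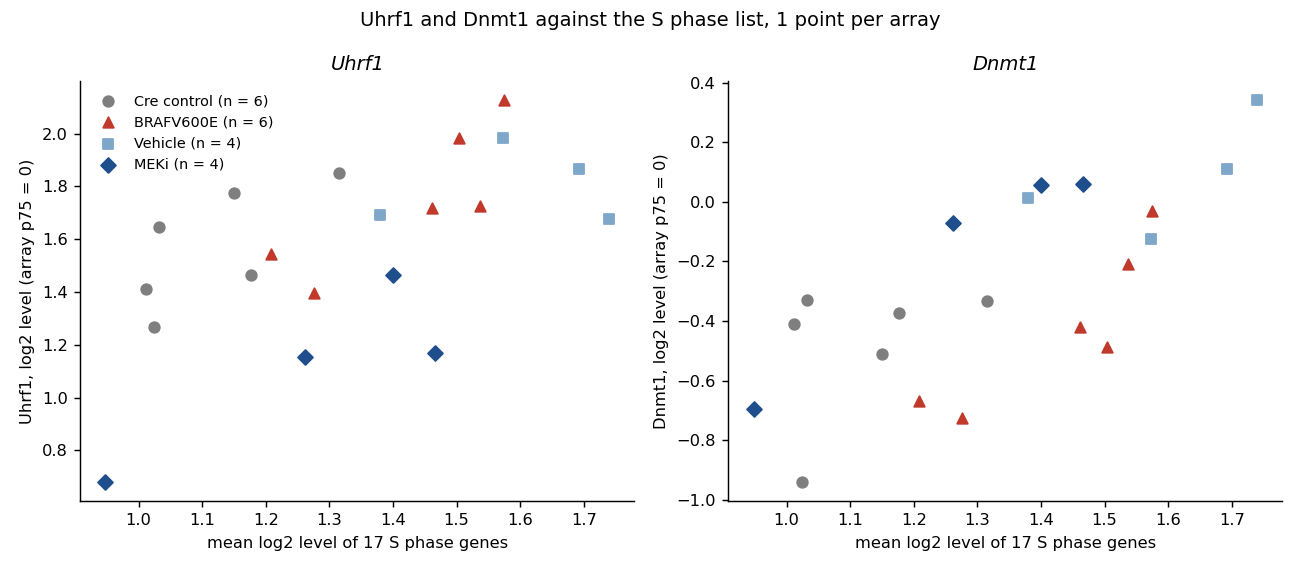
Log2 level of Uhrf1 and of Dnmt1 (y axes) against the mean log2 level of 17 S phase genes (x axis), 1 point per array, with the group given by colour and shape. MEKi replicate 2 is the lowest point for Uhrf1, at 0.68, and has an S phase mean of 0.95.

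The genes whose level followed these members most closely were named by a fixed rule, the 3 highest Pearson correlations over the 20 arrays after each group's mean was subtracted, among 18735 genes. For Dnmt1 they were Rrm1 (r 0.853), which is the other ribonucleotide reductase subunit and one of the S phase genes, Pomt2 (0.844) and 2900092C05Rik (0.830). For Uhrf1 they were Cad (r 0.872), the first enzymes of pyrimidine synthesis, Ssbp3 (0.855) and Prpf31 (0.844). Levels of Dnmt1 and Uhrf1 correlated with each other with r 0.667, and each correlated with the S phase mean, at 0.777 for Dnmt1 and 0.720 for Uhrf1. Other pairs of members were nearly as close, Uhrf1 with Tdg at 0.658 and Tet1 with Tet3 at 0.636. These values are descriptions over arrays that share slides, and the highest of many correlations is high by selection.

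The promoter windows of the members are shown next because their own sequence is rich in the sites the enzymes act on. The RefSeq table used (build GRCm38.p6) gave 13 windows for the 8 genes, each of 300 bases. They held between 2 and 57 CpG sites, with a median of 26, against a median of 7 over all 32851 windows. The Tet2 window, with 57, exceeded 99.8% of all windows, and the 2 Dnmt3a windows near the first start held 46 and 47. For each window the 250 bases before the start were searched on both strands for letters known to bind factors of the cell cycle or the MAPK pathway. The E2F letters TTTCCCGC, TTTCGCGC, TTTGCCGC or TTTGGCGC stood in 2 of the 13 windows, 1 of Dnmt1 and 1 of Uhrf1, against 1.86% of all windows. The E-box CACGTG stood in 2, of Dnmt3a and Tdg, against 6.02%. The ETS letters CCGGAAGT stood in none, against 2.88%, and the AP-1 letters TGACTCA or TGAGTCA in none, against 4.46%. A match is a description of letters and not a bound site. The E2F, E-box and ETS letters hold a CpG site themselves, and the shares over all windows were not matched for CpG content. The Uhrf1 stretch is chr17:56304063-56304312 on the plus strand, with the E2F letters in capitals 177 bases before the start. The Dnmt1 stretch is chr9:20952824-20952853 on the minus strand, with the same letters in capitals as they read on the opposite strand.
Uhrf1: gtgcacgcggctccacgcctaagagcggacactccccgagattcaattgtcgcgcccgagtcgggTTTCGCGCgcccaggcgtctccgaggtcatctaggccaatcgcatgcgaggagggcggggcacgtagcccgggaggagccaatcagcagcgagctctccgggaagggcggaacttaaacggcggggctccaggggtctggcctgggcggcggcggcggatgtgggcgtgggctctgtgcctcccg
Dnmt1: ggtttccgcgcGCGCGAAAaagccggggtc

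Dnmt3a, which sets new methylation in somatic tissue, was the member with the smallest p in BRAFV600E against Cre control and lay on opposite sides of its control in the 2 experiments. Its level was −0.22, 0.02 and 0.36 (lowest, median, highest) in Cre control and −1.12, −0.38 and −0.04 in BRAFV600E. Of the BRAFV600E arrays 5 of 6 lay below every control array, and replicate 1 lay among the controls. The difference was −0.48 (SE 0.18, 95% interval −0.86 to −0.10), 1.40-fold lower, with an unadjusted limma p of 0.0173 and an adjusted p of 0.0881. Replicates 1 and 2, on the slide of the controls, read −0.04 and −0.30, whereas replicates 3 to 6, on slide 2, read −1.12, −0.34, −0.54 and −0.41. Within slide 1 the difference was −0.19 (limma adjusted p 0.607). A fit of all 20 arrays together, which shares the spread of the 4 groups, gave the same difference an adjusted p of 0.0324, and over 28 alternatives the limma adjusted p ran from 0.0324 to 0.628.

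In MEKi the level of Dnmt3a was −0.04, 0.00, 0.17 and −0.08, and in Vehicle −0.50, −0.29, −0.61 and −0.33. Every MEKi array lay above every Vehicle array. The difference was 0.45 (SE 0.12, 95% interval 0.16 to 0.73), 1.36-fold higher, with an unadjusted limma p of 0.00696 and an adjusted p of 0.129. It was 0.49 without Vehicle replicate 2 (limma adjusted p 0.123) and 0.57 with the Y-linked level as a covariate (limma adjusted p 0.157). With weights per array it was 0.47 and passed the threshold (limma adjusted p 0.0338), the lowest of 21 alternatives, which ran up to 0.893.

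The other Dnmt3a probes were dimmer. The probe above lies at chr12:3914320-3914379. A probe upstream, at chr12:3908227-3908286, read −2.46, −2.41, −2.42 and −2.38 in MEKi and −2.78, −2.76, −3.06 and −2.56 in Vehicle. These groups did not overlap either, and the difference was 0.37 (95% interval 0.06 to 0.69, limma adjusted p 0.262 over all probes). In BRAFV600E against Cre control the same probe differed by 0.05 (95% interval −0.25 to 0.35). A dim probe at chr12:3895249-3895308 lay between −5.02 and −4.51 in MEKi and between −5.94 and −5.19 in Vehicle, and was well above background on 4 of 4 MEKi and 1 of 4 Vehicle arrays, so that it passed the filter only through MEKi and no test is given. In BRAFV600E it lay between −7.37 and −5.61 and in Cre control between −6.06 and −4.30, with 5 of 6 BRAFV600E arrays below every control, but it was well above background on 0 and 2 of these arrays. The last, at chr12:3838728-3838787, was well above background on 0 of 20 arrays. It read −6.82 on average in BRAFV600E and −6.05 in Cre control, and was not tested. The genes that followed Dnmt3a most closely were Tmem185a (r 0.937), Faim (0.905) and Smim10l1 (0.898).

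**Figure D3:**
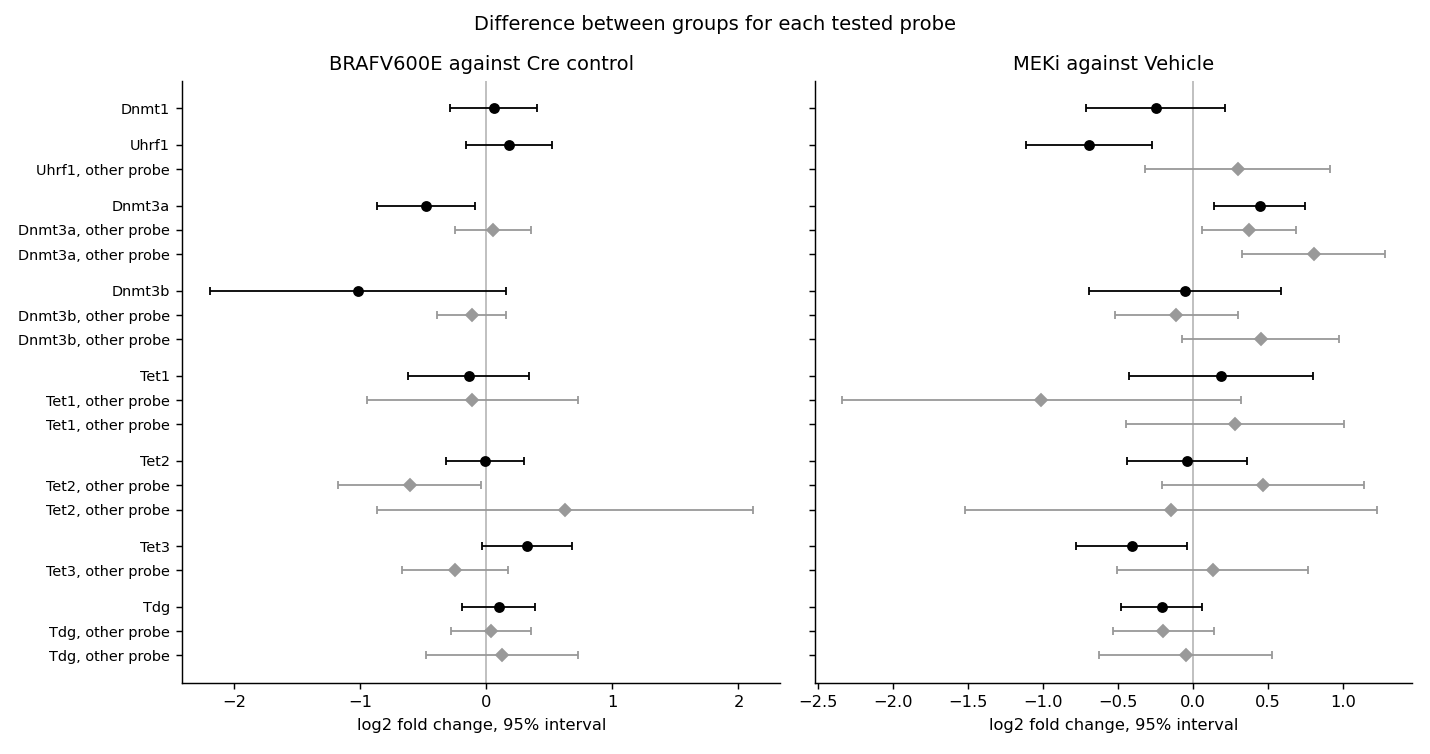
Log2 fold change with its 95% interval (x axes) for every probe of the 8 genes that passed the filter on dim probes (y axis), in both comparisons. Black circles are the probes that stood for a gene and grey diamonds the others. Under MEKi the Dnmt3a probes at 0.45 and 0.37 lie to the right of 0. The Dnmt3a probe at 0.81 was well above background on only 1 of 4 Vehicle arrays. It passed the filter only through MEKi, so its position and interval are not read as a result. In the same comparison the dim probes of Dnmt3b (0.45), Tet1 (0.28) and Tet2 (−0.15) were well above background on 2 of 4 Vehicle arrays. The MEKi arrays alone met the filter for these probes, so they are not read as results either. The Tet3 probes lie on opposite sides of 0 in both comparisons.

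Dnmt3b, the other de novo enzyme, had the largest difference of the 8 in BRAFV600E, and it rested on 3 control arrays. The 6 Cre control arrays read −1.76, 1.39, 0.72, −1.50, 1.38 and −0.41, and the 6 BRAFV600E arrays −1.72, −1.40, −0.85, −1.16, −0.41 and −0.77. Control replicates 2, 3 and 5 lay above every other array, and the other 3 lay within the BRAFV600E range or within 0.05 of its ends. The difference was −1.02 (SE 0.54, 95% interval −2.20 to 0.16, limma adjusted p 0.228). The SD in Cre control was 1.40, and only 2.88% of genes tested had a larger one. The 3 high arrays are the Cre control arrays with a spike-in slope below 0.9. The 4 arrays of slide 2 had a recorded slope of 0 and were not counted as low, and what that 0 stands for was not tested. Without those 3 controls, with the slide 2 arrays kept, the difference was 0.17 (limma adjusted p 0.830), in the opposite direction, and with weights per array it was −1.57 and passed the threshold (limma adjusted p 0.0220), the lowest of 28 alternatives, which ran up to 0.830. The part of the spike-in slope in this result was not tested.

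A probe 1244 bases farther along the same gene, at chr2:153513402-153513461, did not vary in this way. It read between −1.27 and −0.78 in Cre control and between −1.36 and −1.02 in BRAFV600E. The difference was −0.12 (95% interval −0.39 to 0.16, limma adjusted p 0.584 over all probes). The genes that followed the first Dnmt3b probe were Ddx6 (r 0.986), Palm (0.982) and Men1 (0.982). Ddx6, an RNA helicase, read 5.01, 4.57 and 5.14 on control replicates 2, 3 and 5 and 1.86, 2.22 and 3.60 on replicates 1, 4 and 6, so that the same 3 arrays were high. In MEKi the first Dnmt3b probe read −1.26, −1.98, −2.19 and −1.04 and in Vehicle −1.31, −1.63, −1.42 and −1.91. The difference was −0.05 (95% interval −0.69 to 0.59, limma adjusted p 0.953). The remaining probe, at chr2:153476617-153487201, was dim. It lay between −7.60 and −5.13 in BRAFV600E and between −6.36 and −4.15 in Cre control, and was not tested. In BRAFV600E 5 of 6 arrays lay below every control, but it was well above background on 1 and 3 of these arrays. In MEKi it lay between −4.87 and −4.00 and in Vehicle between −5.32 and −4.57. It was well above background on 4 of 4 and 2 of 4 arrays. The MEKi arrays alone met the filter, so no test is given.

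**Figure D4:**
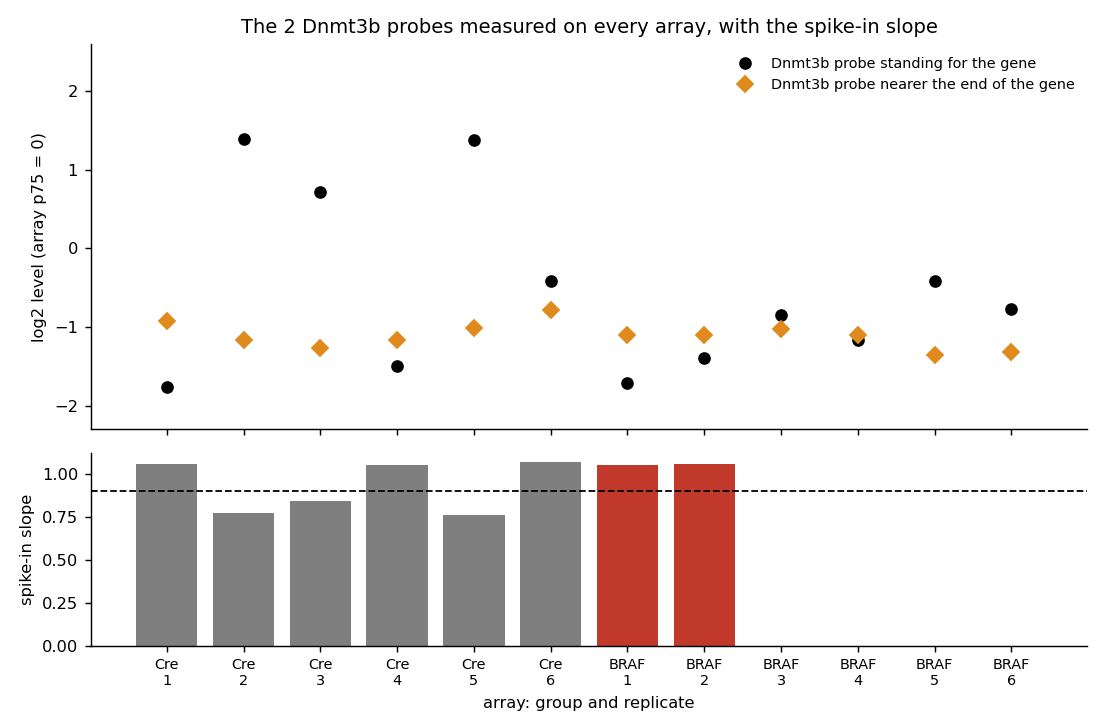
Log2 levels of the 2 Dnmt3b probes that were well above background on every array (upper panel, y axis) and the spike-in slope of the same array (lower panel, y axis, with the limit of 0.9 dashed) for the 12 arrays of the first comparison (x axis). The probe standing for the gene reads 1.39, 0.72 and 1.38 on Cre control replicates 2, 3 and 5, where the slope is 0.773, 0.843 and 0.759, and the other probe stays between −1.36 and −0.78 on all 12. No bar is seen where the slope is 0.

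The TET dioxygenases start the removal of the mark. At the probes standing for the genes, Tet3 had the largest differences of the 3, and it was at −2.24, −1.65 and −1.19 (lowest, median, highest) in Cre control and at −1.44, −1.36 and −1.15 in BRAFV600E. The BRAFV600E arrays lay close together, within the upper part of the control range and, on 1 array, just above it. The difference was 0.32 (95% interval −0.02 to 0.67, limma adjusted p 0.196). In MEKi Tet3 read −1.85, −1.53, −2.07 and −1.74 and in Vehicle −1.45, −1.20, −1.62 and −1.29. Of the MEKi arrays 3 of 4 lay below every Vehicle array. The difference was −0.41 (SE 0.16, 95% interval −0.77 to −0.05), with an unadjusted limma p of 0.0310 and an adjusted p of 0.246. The other Tet3 probe went the opposite way in both comparisons, by −0.25 (95% interval −0.67 to 0.17) in BRAFV600E and by 0.13 (95% interval −0.51 to 0.77) in MEKi. Both Tet3 intervals of that probe include 0.

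Tet2, often mutated in blood cancers, showed no difference in mean at its brightest probe. It lay between −0.43 and 0.08 in Cre control and between −0.36 and 0.11 in BRAFV600E, ranges that nearly coincide. The difference was −0.01 (95% interval −0.31 to 0.29, limma adjusted p 0.967). In MEKi it lay between −0.58 and 0.04 and in Vehicle between −0.56 and −0.14, with a difference of −0.04 (95% interval −0.43 to 0.35, limma adjusted p 0.941). A probe at chr3:133176421-133176479 read −0.61 in BRAFV600E relative to Cre control (95% interval −1.18 to −0.04, limma adjusted p 0.148 over all probes). A dimmer one at chr3:133129701-133129760 went the other way, by 0.63 (95% interval −0.86 to 2.12). In MEKi the former differed by 0.47 (95% interval −0.20 to 1.14). The dimmer one lay between −5.17 and −2.62 in MEKi and between −4.74 and −2.96 in Vehicle. It was well above background on 4 of 4 MEKi and 2 of 4 Vehicle arrays. The MEKi arrays alone met the filter, so no test is given.

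Tet1 varied widely within groups, and its level ran from −2.61 to −1.33 in Cre control and from −2.57 to −1.91 in BRAFV600E. The highest value came from Cre control replicate 6. The difference was −0.14 (95% interval −0.62 to 0.34, limma adjusted p 0.713), and without that array it was 0.012. In MEKi the range was −3.04 to −2.16 and in Vehicle −3.19 to −2.25, with a difference of 0.19 (95% interval −0.43 to 0.80, limma adjusted p 0.802). The other Tet1 probes were dimmer. The one at chr10:62274448-62274507 differed by −0.11 in BRAFV600E (95% interval −0.95 to 0.73) and by −1.01 in MEKi (95% interval −2.34 to 0.32). Vehicle replicate 3 read −1.81 at that probe, and the other Vehicle arrays lay between −4.85 and −3.56. The one at chr10:62301856-62301915 was not tested in BRAFV600E. In MEKi it lay between −5.25 and −4.16 and in Vehicle between −5.63 and −4.65. It was well above background on 4 of 4 MEKi and 2 of 4 Vehicle arrays. The MEKi arrays alone met the filter, so no test is given. The genes that followed Tet1 were B3gat1 (r 0.981), Krt6b (0.977) and 4930443O20Rik (0.972). For Tet2 they were Fat1 (0.847), Ppp4r1 (0.810) and Dgkq (0.800), and for Tet3 Gm10910 (0.792), Olfr95 (0.785) and Syna (0.783).

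Tdg, the glycosylase that completes active demethylation, read 2.61, 2.55, 2.74 and 2.63 in MEKi and 2.77, 2.92, 2.91 and 2.76 in Vehicle. The groups did not overlap, but the difference was small, −0.21 (SE 0.11, 95% interval −0.46 to 0.04, limma adjusted p 0.397). The probe at chr10:82112969-82113029 that gave these values shares 41 bases with another, at chr10:82112989-82113048, which differed by −0.20 (95% interval −0.53 to 0.14), so the pair is not an independent check. The remaining probe, at chr10:82110701-82110760, differed by −0.05 (95% interval −0.62 to 0.53). In BRAFV600E Tdg lay between 2.36 and 2.89 and in Cre control between 2.39 and 2.82, a difference of 0.10 (95% interval −0.18 to 0.38, limma adjusted p 0.655). The genes that followed it were Cul5 (r 0.864), Ercc8 (0.848) and Ntmt1 (0.841).

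Set side by side, 6 of the 8 genes had opposite signs in the 2 comparisons, Dnmt3b and Tet2 being the exceptions, and so had 70.2% of the 18571 genes tested in both. No array is shared between the comparisons. The median difference over the 8 was 0.02 in BRAFV600E and −0.13 in MEKi.

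Some genes that work with the members were called in BRAFV600E against Cre control, where 12.4% of all genes tested were called in either direction. Of 11 genes of the methyl donor cycle, which supplies S-adenosylmethionine, all tested, 3 were called higher and 0 lower (6.18% and 6.26% of all genes). The other 8 were not called, and 3 of the 11 were below 0. Shmt2 and Shmt1, which feed one-carbon units from serine, were higher by 1.00 (SE 0.14, limma adjusted p 0.00116) and 0.64 (SE 0.14, limma adjusted p 0.0132), and Ahcyl1, a relative of the S-adenosylhomocysteine hydrolase, by 1.13 (SE 0.28, limma adjusted p 0.0219). Of 11 TET cofactor and regulator genes 1 was called, Idh1, which makes 2-oxoglutarate from isocitrate in the cytosol, higher by 1.15 (SE 0.23, limma adjusted p 0.00917). Under MEKi Idh1 differed by −1.57 (SE 0.33, limma adjusted p 0.0557) and Shmt1 by −0.69 (SE 0.19, limma adjusted p 0.128). Shmt2 differed by −0.28 (SE 0.20, limma adjusted p 0.555) and Ahcyl1 by −0.70 (SE 0.46, limma adjusted p 0.521). None of them was called. Of 8 methyl-CpG readers 1 was called in BRAFV600E, Mbd1, lower, at −1.03 (SE 0.30, limma adjusted p 0.0406). Under MEKi it differed by 0.26 (limma adjusted p 0.743). The counts of 1 for the TET list and 1 for the readers are near the share over all genes.

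No gene of the remaining partner lists was called in BRAFV600E except Taf7l, a germline gene, lower, at −0.62 (SE 0.19, limma adjusted p 0.0488). Its probe was not dim, with a mean level of 2.48 in BRAFV600E and 3.10 in Cre control. It was 1 of 4 germline genes tested, where 6.26% of all genes were called lower. Of 12 maintenance partners 0 were called, with Uhrf2, a relative of Uhrf1, at 0.44 (SE 0.13, limma adjusted p 0.0507) and Pcna, the replication clamp, at 0.39 (SE 0.13, limma adjusted p 0.0606). Under MEKi Pcna was at −0.63 (SE 0.16, limma adjusted p 0.0965). Of 10 repair genes acting after Tdg 0 were called, and Apex1, which cuts the abasic site, was at 0.39 (limma adjusted p 0.0963) in BRAFV600E and −0.55 (limma adjusted p 0.166) in MEKi. Of 12 germline genes that methylation normally keeps silent, only 4 passed the filter on dim probes in BRAFV600E against Cre control, and 5 did so in MEKi against Vehicle. Of 11 genes from methylator panels of colorectal cancer 0 were called in either comparison. Their median was −0.30 in BRAFV600E, where Runx3 was at −0.62 (limma adjusted p 0.0817) and Igf2 at −0.64 (limma adjusted p 0.0986), and 0.02 in MEKi, where Socs1 was at 0.77 (limma adjusted p 0.0608). In MEKi against Vehicle Mcm3 was the only called gene over the 8 partner lists.

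**Figure D5:**
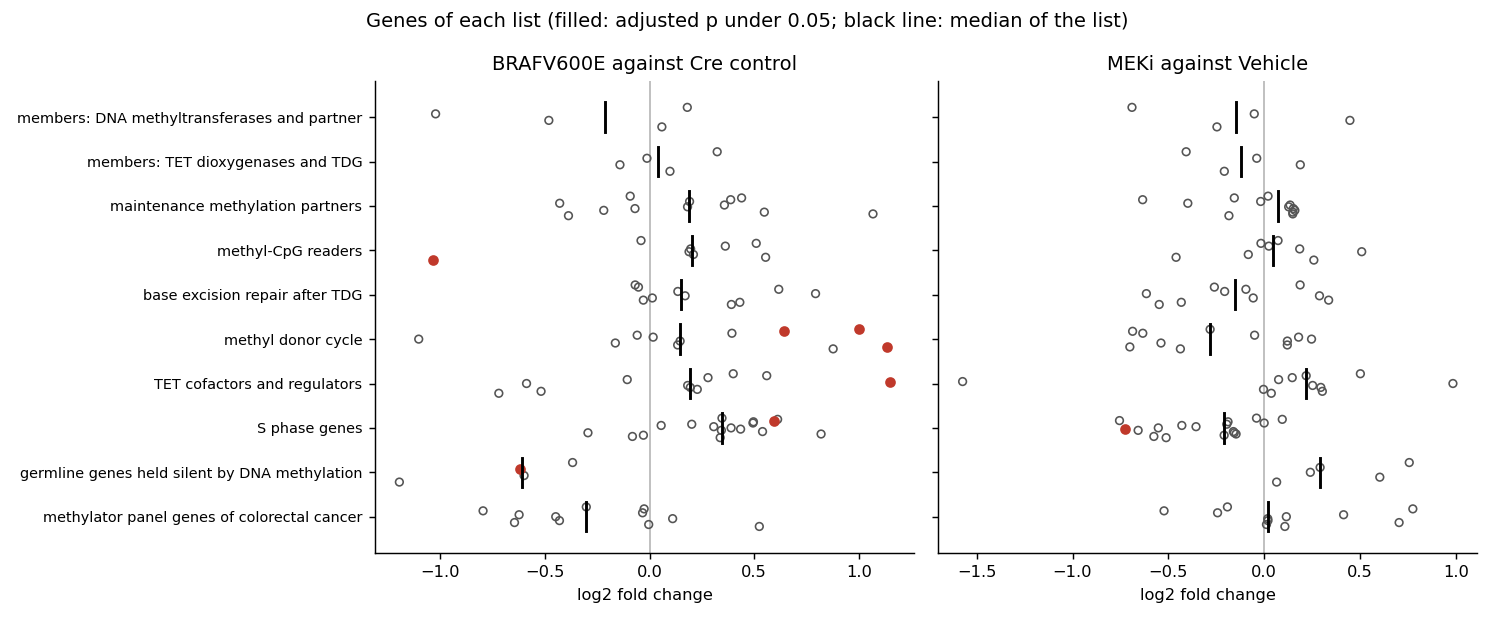
Log2 fold change (x axes) of each tested gene in the member and partner lists (y axis) in both comparisons. Filled circles passed an adjusted p under 0.05, open circles did not, and the black line is the median of the list. Filled circles stand in 5 lists in BRAFV600E and in 1 list in MEKi, and none is a member.

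Some markers of other cell types differed between the groups, and the part of cell types in the members' values was not tested. In BRAFV600E, 3 of 3 Paneth markers and 2 of 3 crypt stem markers were called lower, and so were 2 of 5 T lymphoid, 1 of 4 myeloid and 1 of 3 enteric neuron markers (Uchl1). Called higher were 2 of 6 epithelial markers (Cdh1 and Krt19), 1 of 6 enterocyte markers (Alpi) and 1 of 5 smooth muscle markers (Des). The other 5 enterocyte markers were below 0 and not called, and the median of that list was −0.55. Of 4 fibroblast, 3 endothelial and 5 B lymphoid markers 0 were called, and Ptprc, found on all leukocytes, was not called either. Over all genes 6.26% were called lower and 6.18% higher. BRAFV600E replicate 2 stood apart in the enterocyte list, with a mean level of 4.61 against 6.53 to 7.25 on the other 5 BRAFV600E arrays, and without it Dnmt3a differed by −0.51 (limma adjusted p 0.109). Mean Paneth marker levels were 4.46 to 6.49 in BRAFV600E and 6.79 to 7.45 in Cre control, and those of the crypt stem list −1.32 to −0.45 and −0.39 to 0.43. Ascl2, a stem cell factor, was called lower, at −1.52 (SE 0.11, limma adjusted p 1.57e-05) in BRAFV600E and called higher, at 1.00 (SE 0.17, limma adjusted p 0.0309) in MEKi. The epithelial marker Krt19 was called lower in MEKi, at −0.72 (SE 0.12, limma adjusted p 0.0297). Over all genes 0.884% were called lower in MEKi and 1.09% higher. T lymphoid markers lay between −1.44 and 0.11 in BRAFV600E and −0.39 and 0.74 in Cre control, and between −0.70 and 0.51 in MEKi and −1.32 and −0.48 in Vehicle, where 0 of 5 were called.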

How the data were processed

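Per the file headers, the authors extracted each array with Agilent Feature Extraction (version 10.5.1.1 in the submitters' processing notes, build mm9) and deposited processed intensity per spot, on a linear scale and not normalized between arrays. The deposited series matrix held the same intensity within 0.6% on every array and served as the unscaled alternative. The deposited 0 or 1 marks per spot, another kind of value, were used as filters. Control and outlier spots were left out, signals were put on the log2 scale, the array's 75th percentile was subtracted and copies of a probe were averaged. Probes were named through RefSeq (33219 by accession, 10578 by symbol, 537 by synonym, 12271 without a symbol and not tested). Genes were kept when the scanner put their probe well above background on 6 or more of 12 (or 4 or more of 8) arrays, and fitted with limma (version 3.58.1, R 4.3.3, two-sided, no covariates), per comparison, a step tested on simulated data. Groups came from the labels. The treatment text of the labels, the same for all 20 arrays, matches no group and was not used. Members and lists were chosen with earlier results of these data known. Named from each partner or marker list were up to 4 called genes by size, or the 2 with the smallest p, as far as they bear on a member. Alternatives covered background correction, scaling, filters, probe choice, slide, Y-linked level, weights and each array in turn. Leaving out the 3 Cre control arrays of low spike-in slope was chosen after seeing the data. The number of arrays limits the precision.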

Additional observations from a re-analysis of the deposited data

Results flagged for a closer look

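Of the 32 sets of arrays formed by 8 genes in 4 groups, 2 held an array far from the rest of its group by Dixon's criterion, which chance alone meets in about 1 of 20 sets. Both concern Dnmt1. Cre control replicate 2 read −0.94, and the nearest control array read −0.51. That array is among the 3 control arrays with a low spike-in slope, and without it the difference between BRAFV600E and Cre control was −0.032. MEKi replicate 2 read −0.69, and the nearest MEKi array −0.07. The same array was lowest for Uhrf1, at 0.68.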

How the results depend on the processing

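The count of called genes among the 8 stayed at 0 in both comparisons under every alternative and every left-out array except these. In BRAFV600E against Cre control it was 1 with all 20 arrays in 1 fit (Dnmt3a, −0.48), 1 with array weights (Dnmt3b, −1.57) and 6 without scaling between arrays, where the median of all genes moved to 0.79 and 98.1% of calls were higher. In MEKi against Vehicle it was 1 with array weights (Dnmt3a). Over all genes 2368 were called in BRAFV600E, 49.7% of them higher. With the Y-linked level as a covariate 1794 were called. The count was 4611 with normexp (34.3% higher), 9333 without scaling, 5172 with array weights, 1535 with slide as a block, 734 within slide 1 and 426 without the 3 Cre control arrays of low spike-in slope (the slide 2 arrays, at 0, were kept), and 1441 to 2858 leaving out 1 array, with 1441 without Cre control replicate 3 and 1525 without replicate 2. Centring on the median kept the count near, with 73.6% higher. In MEKi 380 were called, against 72 without scaling, 234 with no filter on dim probes, 1414 with array weights, 53 with the Y-linked level as a covariate and 76 to 376 leaving out 1 array. It was 76, 89 and 147 without MEKi replicates 1, 3 and 4, and 191, 117 and 98 without Vehicle replicates 1, 3 and 4.

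Signs turned for these values, and the cause was not tested. In BRAFV600E, normexp gave −0.026 for Dnmt1 and 0.050 for Tet2, no scaling 0.33 for Dnmt3a, 0.67 for Tet1 and 0.80 for Tet2, median centring 0.11, the mean of the gene's probes 0.0015 and array weights 0.085 for Tet2. Slide as a block and the fit within slide 1 both gave −0.089 for Dnmt1, −0.011 for Uhrf1 and −0.13 for Tdg. Without those 3 control arrays Dnmt1 was at −0.018 and Dnmt3b at 0.17. Leaving out 1 array gave −0.032 to 0.12 for Dnmt1, −0.24 to 0.012 for Tet1 and −0.070 to 0.039 for Tet2. In MEKi, the mean of the probes gave 0.10 for Dnmt3b, −0.18 for Tet1 and 0.094 for Tet2. These means include dim probes for which the MEKi arrays alone met the filter. Array weights gave 0.075 for Dnmt3b. Leaving out 1 array gave −0.24 to 0.14 for Dnmt3b and −0.18 to 0.029 for Tet2. No paired analysis was possible because the labels carry no replicate numbers, and those used here follow accession order.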
